A study of Mus musculus with 32 samples.

Results

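The histone genes of a mouse series on the B-lineage transcription factor Ebf1 were read as 52 of the 45101 probe sets of Affymetrix mouse whole-genome arrays. A probe set is a group of short probes that together report 1 transcript or several near-identical ones. A probe set was taken when its gene symbol was that of an H1, H2A, H2B, H3 or H4 gene or of the H2A.Z and H3.3 variants, in the current or the older Hist naming, with H2ax left out. The 52 probe sets carried 64 histone gene symbols. Of them, 26 named a single histone gene and 18 named several histone genes that the probes cannot separate, which gave 44 probe sets for counting. The other 8 also carried a symbol outside the families and were counted apart. The 44 comprised 4 for the linker histones H1f2 and H1f4, 4 for germline linker histones, 1 for the replacement linker H1f10, 6 for H2A, 10 for H2B, 8 for H3, 5 for H4, 4 for the H2A.Z genes and 2 for H3.3 genes. The rule matched 82 genes of the mouse gene table, 55 of them on chromosome 13 and 11 on chromosome 3; 63 of these 82 were on the array by name and 19, H1f0, H1f1, H1f3 and H1f5 among them, were not analysed here.

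Arrays came from 3 experiments. In the first, the mouse pre-B cell line 230238 carried the retroviral vector pMIG with an Ebf1-engrailed fusion (Ebf1-Eng, 3 arrays) or the empty vector pMIG (3 arrays). Engrailed supplies a repressor domain, so the fusion joins it to the DNA-binding protein Ebf1. All 6 samples were cells of this 1 line, grown in RPMI1640 and sorted for GFP. In the second, fetal liver cells of E14.5 Ebf1-/- C57BL/6J embryos were grown on OP9 stroma with KIT ligand, FLT3L and IL-7, infected with pMIG-Ebf1-ER and sorted for GFP. Ebf1-ER is an Ebf1 protein joined to a hormone-binding domain that 4-hydroxytamoxifen switches on, and the cells had received 0.1 µM of the drug for 0, 6, 12 or 24 h (2 arrays each). The 0 h cells carried Ebf1-ER too and had no drug, so time, drug and Ebf1-ER activity cannot be told apart against them. In the third, live-sorted whole cells of 8 enlarged lymph nodes from Ebf1+/-Pax5+/- C57BL/6 mice of about 30 weeks, frozen and thawed first (2 arrays per lymph node), were set against wild-type C57BL/6 pro-B cells (2 arrays). These are whole lymph node cells against a sorted precursor population, so genotype, tissue and cell type cannot be told apart.

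Histones package DNA: pairs of H2A, H2B, H3 and H4 form the nucleosome core and H1 binds the linker DNA between nucleosomes. Most of their genes lie in clusters and are transcribed in S phase, when DNA is copied, and their mRNAs end in a stem-loop in place of a poly(A) tail. Labelling for these arrays starts from the poly(A) tail, so the probe sets read the polyadenylated part of histone RNA, which some cluster genes such as H1f2 make in cells that leave the cycle. Replacement histones, H2A.Z from H2az1 and H2az2 and H3.3 from H3f3a and H3f3b, are made throughout the cycle as polyadenylated mRNAs.

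The promoters of 5 genes listed by probe sets described below are shown for their differing motif content: H1f2, H2aw and H2bc8 as linker and core genes, H2az1 and H2az2 as the pair of H2A.Z genes. The array reads H2bc8 only through probe sets shared with H2bc6, H2bc4 and in part other genes. Each is the RefSeq sequence of build GRCm38.p6 from 250 bases before to 50 bases after the start of the gene, 300 bases in all, on the gene's own strand. Capitals mark the octamer ATTTGCAT, the CCAAT box CCAAT and the TATA box TATAAA, each searched on both strands, and none of the marked motifs overlap.
H1f2, chr13:23738557-23738856, plus strand: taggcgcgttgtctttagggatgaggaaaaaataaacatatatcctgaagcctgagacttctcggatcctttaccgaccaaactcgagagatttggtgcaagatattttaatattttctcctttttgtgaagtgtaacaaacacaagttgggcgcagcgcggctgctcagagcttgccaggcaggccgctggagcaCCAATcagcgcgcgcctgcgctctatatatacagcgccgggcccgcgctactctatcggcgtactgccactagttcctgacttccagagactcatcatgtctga
H2aw, chr11:58954435-58954734, plus strand: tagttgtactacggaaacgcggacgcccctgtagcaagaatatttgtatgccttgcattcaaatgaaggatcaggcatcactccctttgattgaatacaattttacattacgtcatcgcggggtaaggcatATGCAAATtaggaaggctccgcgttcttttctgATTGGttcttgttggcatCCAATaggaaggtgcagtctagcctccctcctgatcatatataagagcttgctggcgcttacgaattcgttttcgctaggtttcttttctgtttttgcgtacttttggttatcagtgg
H2bc8, chr13:23571150-23571449, plus strand: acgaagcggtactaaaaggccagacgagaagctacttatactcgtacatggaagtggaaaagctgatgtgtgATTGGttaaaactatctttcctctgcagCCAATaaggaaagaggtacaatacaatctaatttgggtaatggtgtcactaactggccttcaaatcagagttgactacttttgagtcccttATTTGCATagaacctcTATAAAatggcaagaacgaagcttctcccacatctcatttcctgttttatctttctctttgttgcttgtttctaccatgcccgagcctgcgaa
H2az1, chr3:137864237-137864536, plus strand: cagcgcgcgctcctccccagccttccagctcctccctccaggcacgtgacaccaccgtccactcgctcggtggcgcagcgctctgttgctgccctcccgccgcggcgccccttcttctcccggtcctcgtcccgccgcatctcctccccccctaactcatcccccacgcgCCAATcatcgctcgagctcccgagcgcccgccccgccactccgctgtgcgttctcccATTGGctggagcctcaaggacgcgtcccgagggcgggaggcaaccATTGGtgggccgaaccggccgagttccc
H2az2, chr11:6444394-6444693, minus strand: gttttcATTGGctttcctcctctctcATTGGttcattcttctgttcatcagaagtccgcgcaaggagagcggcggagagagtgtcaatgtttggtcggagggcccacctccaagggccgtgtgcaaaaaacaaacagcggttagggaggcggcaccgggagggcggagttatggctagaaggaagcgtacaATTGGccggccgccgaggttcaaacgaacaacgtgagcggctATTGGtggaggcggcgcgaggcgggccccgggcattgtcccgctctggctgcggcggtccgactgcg
The H2aw and H2bc8 promoters hold an octamer, the letters known as a histone H2B and immunoglobulin promoter element, while the H1f2, H2az1 and H2az2 windows hold none. H2bc6 has a window with an octamer and another without, and TATAAA in neither, while H2bc4 has no entry. Over the 58 of 64 histone genes with an entry, 10 of 59 promoters (16.9%) held the octamer, against 1.74% of 32851 mouse promoters. By family it was in 5 of 13 H2A and 4 of 13 H2B promoters, in 1 of 3 H3.3 promoters, that of H3f3b, and in 0 of 10 H3 and 0 of 12 H4 promoters. H2ac19, a core H2A gene, has none in its window. CCAAT was in 79.7% of the histone promoters, against 37.4% of all, and TATAAA in 44.1%, against 13.6% of all. The letters TTTCCCGC were in 1.69% of the histone promoters, against 1.07% of all, and TTTGGCGC in 0 of them, against 0.514% of all. A match is a description of the letters only.

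All values below are deposited log2 values. In the first and second experiments each probe set had a median of 0 over the arrays; in the third, 10846 of 45101 did, and the centre of the rest is unknown. They give differences between arrays and no expression level, and no gene's level is compared with another's. A change is a difference of group means on this log2 scale, called when the adjusted p of limma over all 45101 probe sets was under 0.05. The labels do not say whether arrays of a group in the 230238 and Ebf1-ER experiments came from separate cultures. The p-values there set a difference only against the spread of these arrays within groups, and that spread may be technical. All samples were bulk RNA, in which fewer cells of a type and less RNA per cell cannot be told apart. Ebf1 itself was lower on 4 of its 5 probe sets in Ebf1-Eng cells, on 4 of 5 at 24 h of Ebf1-ER and on 4 of 5 in the lymph nodes, where the fifth rose by 4.48 (adjusted p 8.11e-08); the labels do not say which part of the transcript a vector or the targeted allele carries, so this checks no label. In the first experiment the arrays numbered 3 lay nearer to each other for many histone probe sets than those numbered 1 and 2. In the Ebf1-ER experiment both 0 h arrays lay far from every later one on the first principal component, which held 65.7% of the variance, and in the third experiment the wild-type pro-B arrays carried more myeloid marker RNA than any lymph node.

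Ebf1-Eng cells had more RNA of the H1f2 linker histone and of some H2A, H2B and H3 genes than cells with the empty vector. Among the 44 histone probe sets, 10 rose and 1 fell, beside 8.84% of all 45101 probe sets called, 5.13% higher and 3.72% lower. The median change of the 44 was 0.19, beside -0.02 for all probe sets. The 10 comprised 2 of 4 H1, 3 of 6 H2A, 3 of 10 H2B and 2 of 8 H3 probe sets. Of the 5 H4 probe sets limma called 0, with 2 higher at an unadjusted p under 0.05.

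H1f2 encodes a linker histone of the chromosome 13 cluster. Its probe set 1416101_a_at read 1.52, 1.58 and 1.20 in Ebf1-Eng cells, against -2.23, -2.21 and -1.20 in empty vector cells. The groups lay far apart, with the third empty vector array nearest to the Ebf1-Eng arrays. The rise was 3.32 ± 0.28 (SE), or 9.98-fold, with an adjusted p of 0.00134. Probe set 1436994_a_at gave 2.99 ± 0.37, adjusted p 0.00431, while the third H1f2 probe set, 1438204_at, was not called here or in any other comparison, so the H1f2 probe sets disagree. H1f4, another linker gene of the cluster, was not called.

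Among the core genes the change was largest for H2B. Probe set 1418072_at, shared by H2bc8, H2bc6 and H2bc4, read 1.92, 1.58 and 0.95 in Ebf1-Eng cells, against -2.65, -2.15 and -0.95 in empty vector cells. All 3 Ebf1-Eng arrays were above all 3 empty vector arrays, by 3.40 ± 0.45 (10.5-fold, adjusted p 0.00546). The other probe sets of the same 3 genes, 1440330_at and 1445565_at, were not called. The H2B probe set 1452540_a_at, shared by 11 genes, rose by 1.96 ± 0.33 (adjusted p 0.0136) and H2bc22 by 1.09 ± 0.26 (adjusted p 0.0471).

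H2aw, which encodes a core H2A outside the main clusters, read 0.80, 0.85 and 0.52 on probe set 1435866_s_at in Ebf1-Eng cells, against -1.99, -1.76 and -0.52 in empty vector cells, a rise of 2.14 ± 0.36 (adjusted p 0.014). Its other probe set, 1455712_at, was 1.13 higher with an adjusted p of 0.0987 and did not pass. Both single-gene probe sets of H2ac19 rose, by 1.05 and 0.80. The H2A probe set 1438009_at, shared by 10 genes, read -0.14, -0.77 and -0.66 in Ebf1-Eng cells, against 2.52, 1.07 and 0.14 in empty vector cells. Its difference of -1.77 ran the other way and was not called (adjusted p 0.108), so the H2A probe sets were not alike.

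For H3, probe sets 1422155_at and 1442051_at are both shared by the same 8 genes. The first read 2.59, 2.66 and 0.48 in Ebf1-Eng cells, against -0.71, -0.74 and -0.48 in empty vector cells. The third Ebf1-Eng array lay well below the other two, and still above every empty vector array. It rose by 2.56 ± 0.55 (5.89-fold, adjusted p 0.0326), and 1442051_at by 1.82 ± 0.29 (adjusted p 0.0107).

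**Figure D1:**
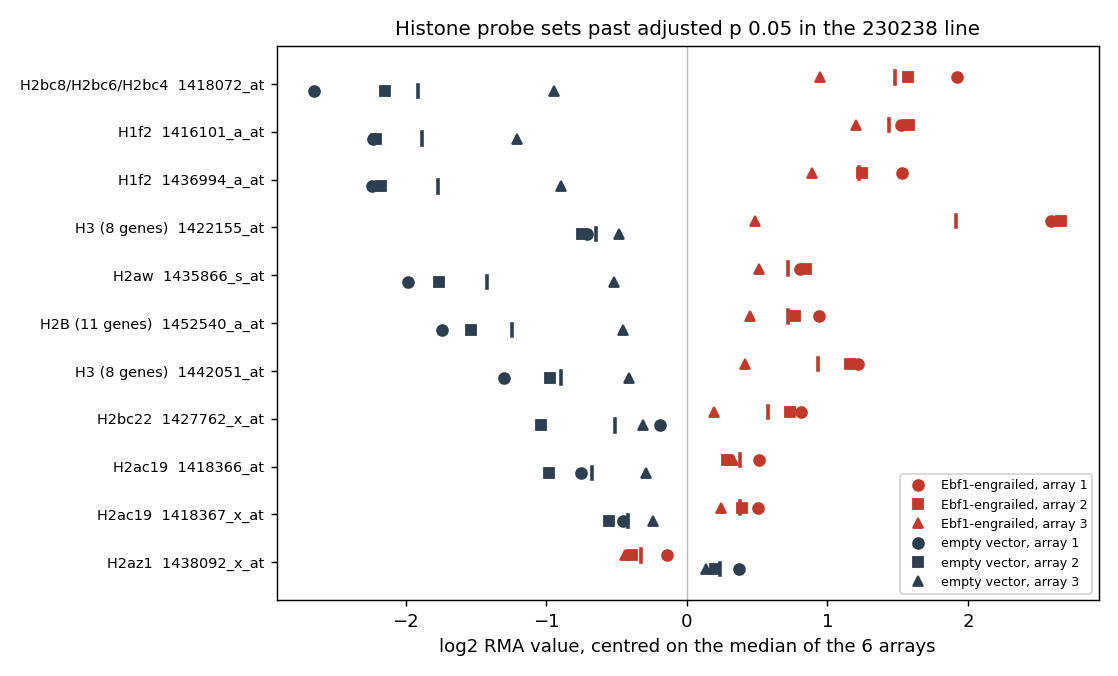
Centred log2 values (x axis) of the 11 histone probe sets called in the 230238 line, with a red symbol for each Ebf1-Eng array, a dark one for each empty vector array, the shape giving the array number, and a short bar at each group mean. The group means of H1f2 on 1416101_a_at lie 3.32 apart and those of the shared H2bc8/H2bc6/H2bc4 probe set 3.40 apart, and the triangles of array 3 often lie nearest to 0.

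The replacement histones did not rise. H2az1, on probe set 1438092_x_at, read -0.14, -0.39 and -0.44 in Ebf1-Eng cells, against 0.37, 0.20 and 0.14 in empty vector cells, a fall of 0.56 ± 0.12 on the log2 scale (adjusted p 0.0284). This was the 1 of 44 that fell, and the second H2az1 probe set, 1438091_a_at, was not called. Both H2az2 probe sets were lower without passing, by -0.71 and -0.68 (adjusted p 0.33 and 0.211). With the array number as a block they passed, at adjusted p 0.00723 and 0.0315, and the counts became 12 higher and 5 lower. H1f10 differed by -0.07 and was not called, nor were the single-gene probe sets of H3f3a and H3f3b. None of the 8 probe sets with another symbol was called by limma, with 1 higher and 3 lower at an unadjusted p under 0.05; the 5 shared by H3f3a and H3f3b are among them.

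The count in Ebf1-Eng cells depended on single arrays: leaving out each array in turn gave 4 to 14 higher and 0 to 3 lower, with 4 higher without Ebf1-Eng array 1 or 2 and 5 without empty vector array 2. Without both arrays numbered 3 it was 18 higher and 6 lower. The 2 H1f2 probe sets and the shared H2bc8 one passed in every one of these leave-one-out fits.

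S-phase genes fell in the same cells, opposite to the 10 histone probe sets that rose and the same way as the 1 that fell. Of 51 probe sets for 24 S-phase genes, such as the helicase subunits Mcm4 and Mcm5 and the thymidylate synthase Tyms, 37 fell and 0 rose. Their mean lay between -0.63 and -0.33 in Ebf1-Eng arrays, against 0.39 to 0.60 in empty vector arrays. Of 34 probe sets for 18 genes of histone mRNA transcription and 3' processing, 7 fell and 0 rose. They included Slbp, which encodes the stem-loop binding protein of histone mRNAs, at -0.98, and Casp8ap2, a processing factor of histone pre-mRNA, at -0.98. Of 56 probe sets for 21 histone chaperones and assembly factors 8 fell and 0 rose, with the H3-H4 chaperones Asf1a at -1.46 and Asf1b at -1.22. The counts of 0 are limma's; at an unadjusted p under 0.05, 0 S-phase, 1 processing and 1 chaperone probe set were higher. Some markers of other cells were called too, beside 5.13% of all probe sets higher and 3.72% lower. Of the myeloid marker probe sets 3 of 15 rose, with means of 0.40 to 0.46 in Ebf1-Eng arrays, against -0.54 to -0.38 in empty vector arrays. Of the T-cell ones 2 of 21 rose, both of Cd28, and of the NK-cell ones 1 of 13, for Klrd1. These last shares are near that of all probe sets. The B-lineage list fell on 9 of 24 and the erythroid list on 1 of 9. The part of cell cycle and cell type in the histone values was not tested.

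In Ebf1-/- fetal liver cells with Ebf1-ER, histone probe sets called after 6 h of 4-hydroxytamoxifen were all lower than at 0 h, and by 24 h calls in both directions were made. The 24 h calls ran both ways within H2A, H3 and H2A.Z, and no difference between classes was tested. At 6 h, 22 of 44 fell and 0 rose (0 also at an unadjusted p under 0.05, limma), beside 28.9% of all probe sets called, 14.7% lower and 14.2% higher. At 12 h, 23 fell and 3 rose, beside 32.4% of all called, 17.0% lower and 15.4% higher, and at 24 h 18 fell and 9 rose, beside 32.3% of all called, 16.2% lower and 16% higher. The median change of the 44 was -0.44 at 6 h, -0.45 at 12 h and -0.11 at 24 h, beside medians of 0.00, 0.01 and 0.02 over all probe sets. The 3 comparisons share the 0 h arrays. In all, 17 probe sets were lower at all 3 times, 4 were lower at 6 h and higher at 24 h, and 12 were called at no time.

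The linker H1f2 fell at every time. Probe set 1416101_a_at read 2.32 and 2.08 at 0 h, 0.12 and -0.12 at 6 h, -0.48 and -0.47 at 12 h and -0.14 and 0.15 at 24 h. No later array overlapped the 0 h arrays. The changes were -2.20, -2.68 and -2.19 ± 0.14 at 6, 12 and 24 h, which is 6.39-fold lower at 12 h (adjusted p 9.77e-06). H1f4 and the third H1f2 probe set were called at no time. Among the germline linkers, which are made in testis or oocyte, H1f6 was higher at 24 h only, by 0.41 (adjusted p 0.0375), and the difference between times was not called.

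The H2A and H2B genes with the largest changes fell at 6 h and remained lower. H2aw, on probe set 1455712_at, read 1.98 and 2.55 at 0 h, 0.12 and 0.23 at 6 h, -0.49 and -0.31 at 12 h and -0.30 and -0.12 at 24 h. Its change at 12 h was -2.67 ± 0.18, or 6.38-fold lower (adjusted p 2.58e-05). The shared H2bc8/H2bc6/H2bc4 probe set 1418072_at read 1.52 and 1.46 at 0 h, 0.03 and -0.29 at 6 h, -0.81 and -0.81 at 12 h and -0.01 and 0.01 at 24 h. It was lowest at 12 h, 4.92-fold below 0 h, and at 24 h it stood 0.81 above 12 h (adjusted p 0.0164). The other probe sets of the same 3 genes moved less. At 0, 6, 12 and 24 h their means were 0.23, -0.01, -0.19 and 0.28 on 1440330_at and 0.17, -0.10, -0.30 and 0.20 on 1445565_at. Both were above their 0 h mean at 24 h, so the probe sets of these genes disagree. H2bc21, a chromosome 3 cluster gene, was lower by 1.57, 1.68 and 1.27 on probe set 1455095_at at 6, 12 and 24 h. The H2bu1-ps/H2bu2 probe set, for an H2B gene pair outside the main cluster, and the 6-gene H2B probe set 1425398_at were lower at all 3 times as well.

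Some core probe sets came back or passed the 0 h value by 24 h. The 11-gene H2B probe set 1452540_a_at changed by -1.43, -1.57 and -0.46 at 6, 12 and 24 h, and rose by 1.11 between 12 and 24 h (adjusted p 0.00384). The 12-gene H3 probe set 1460314_s_at read -0.04 and -0.06 at 0 h, -0.70 and -0.58 at 6 h, 0.19 and 0.04 at 12 h and 1.22 and 1.30 at 24 h. Its 6 h arrays were the lowest and its 24 h arrays the highest, with changes of -0.59 at 6 h (adjusted p 0.00239) and 1.31 at 24 h (adjusted p 4.75e-05). The H4 probe set 1424854_at, shared by 13 genes, followed the same course: -0.09 and -0.03 at 0 h, -0.90 and -0.78 at 6 h, 0.03 and 0.20 at 12 h and 0.89 and 0.90 at 24 h. Of the 5 H4 probe sets, 2 fell at 6 h and 3 rose at 24 h. The H2A probe set of 10 genes, 1438009_at, fell by 0.28 on the log2 scale at 6 h and rose by 0.69 at 12 h and 0.68 at 24 h. H3c7 rose by 0.68 at 24 h (adjusted p 0.0358).

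The 8-gene H3 probe sets, which rose in Ebf1-Eng cells, were lower than at 0 h at all 3 later times. Probe set 1442051_at read 1.56 and 1.09 at 0 h, 0.49 and 0.16 at 6 h, -0.16 and -0.40 at 12 h and -0.65 and -0.65 at 24 h, with the lowest mean at 24 h. Its change at 24 h was -1.98 ± 0.18 (adjusted p 0.000114). The second 8-gene probe set, 1422155_at, had means of 1.00, 0.03, -0.22 and -0.11 at 0, 6, 12 and 24 h, so it was lowest at 12 h, and neither was called between neighbouring times. The second 12-gene probe set, 1427864_at, had means of -0.01, -0.13, 0.02 and 0.22 and was called at no time. Both H2ac19 probe sets had their lowest means at 24 h, with changes against 0 h of -1.13 and -1.02.

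**Figure D2:**
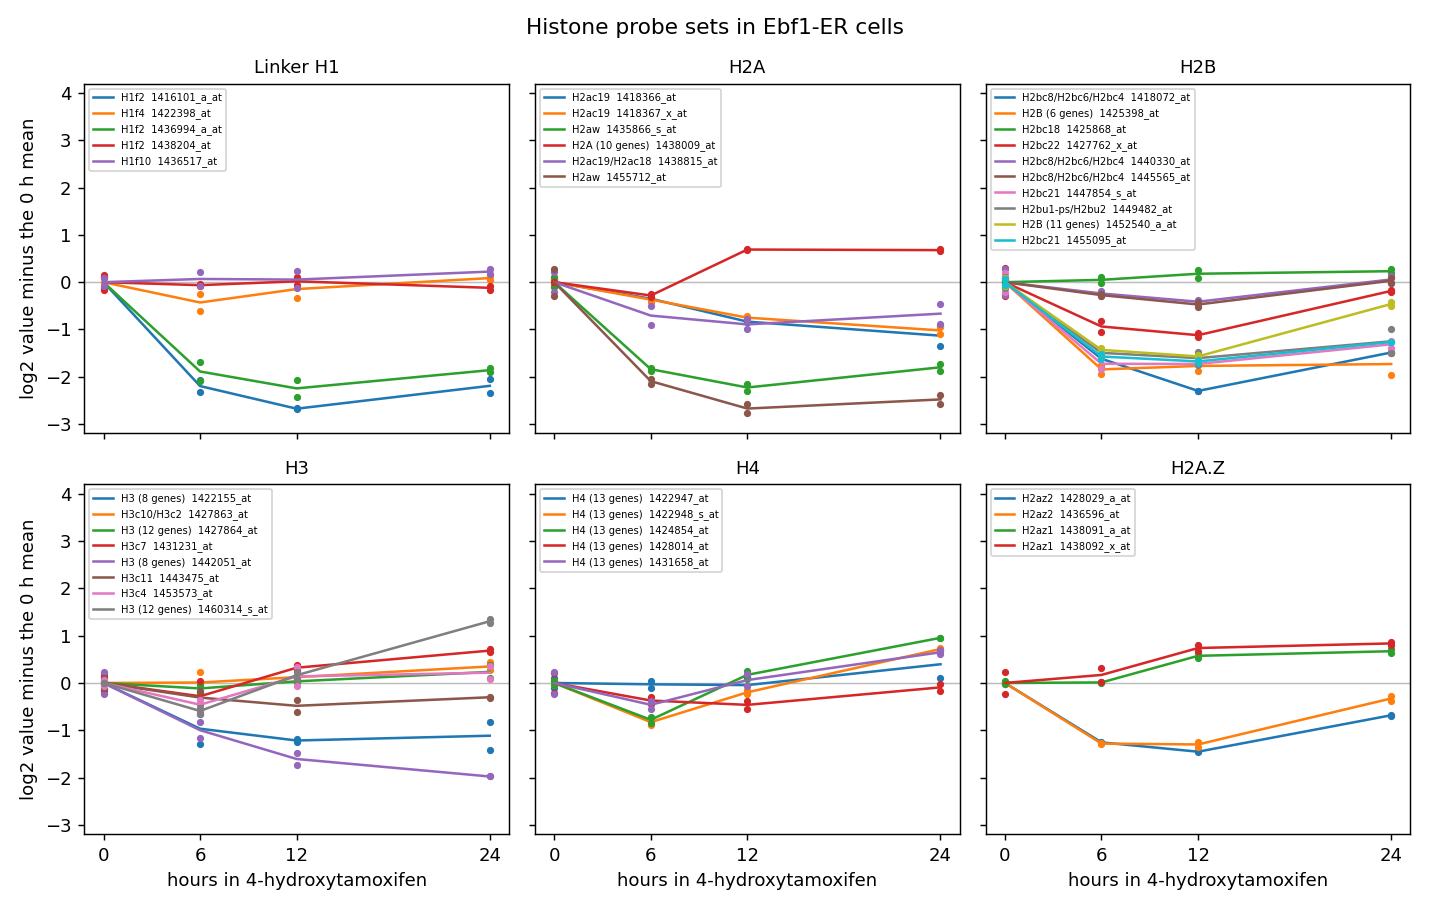
Log2 values of histone probe sets minus their own 0 h mean (y axis) against hours of 4-hydroxytamoxifen (x axis) in Ebf1-/- fetal liver cells with Ebf1-ER, by histone class, one point per array and a line through the mean of the 2 arrays. H1f2, H2aw and the shared H2bc8 probe set drop by 6 h and remain below 0 h, whereas the 12-gene H3 probe set 1460314_s_at and the H4 probe set 1424854_at dip at 6 h and are highest at 24 h.

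The H2A.Z genes split. H2az1 rose: probe set 1438091_a_at read -0.31 and -0.25 at 0 h, -0.25 and -0.28 at 6 h, 0.35 and 0.25 at 12 h and 0.44 and 0.35 at 24 h. Its changes were 0.01, 0.57 and 0.67, with adjusted p 0.00164 at 12 h and 0.000752 at 24 h. H2az2 fell: probe set 1428029_a_at read 0.96 and 0.97 at 0 h, -0.27 and -0.30 at 6 h, -0.47 and -0.50 at 12 h and 0.30 and 0.27 at 24 h. Its changes were -1.26, -1.45 and -0.68, and between 12 and 24 h it rose by 0.77 (adjusted p 0.00747). The second probe set of each gene moved the same way, 1438092_x_at by 0.74 at 12 h and 0.84 at 24 h and 1436596_at by -1.28 at 6 h and -1.30 at 12 h. For H3.3, the H3f3b probe set 1430357_at fell by 1.18, 0.77 and 0.79 on the log2 scale at 6, 12 and 24 h, and H3f3a by 0.44 at 12 h, where alone it passed. H1f10 was called at no time, with changes of 0.07, 0.05 and 0.22. Of the 8 probe sets with another symbol, 5 fell at 6 h, and 4 fell and 2 rose at 24 h, the risers both H2az1 and the others H2aw or H3f3a and H3f3b.

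Between neighbouring times, 5 of 44 rose and 1 fell at 12 h against 6 h, beside 1.38% of all probe sets called, 0.914% higher and 0.463% lower. At 24 h against 12 h, 9 rose and 0 fell, beside 2.78% of all called (1.5% higher and 1.28% lower); 1 was lower at an unadjusted p under 0.05. The 9 comprised 4 H2B, 1 H3, 2 H4 and both H2az2 probe sets. These counts turned on single arrays: 1 or 2 rose between 6 and 12 h when an array of either time was left out, and 0 rose between 12 and 24 h without 12 h array 2 or without 24 h array 2, 1 without 12 h array 1 and 5 without 24 h array 1.

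The S-phase list moved against the falling histone probe sets here too. It moved with the rising ones, 3 of 44 at 12 h and 9 of 44 at 24 h. Of its 51 probe sets 45 rose at 6 h, 46 at 12 h and 46 at 24 h, and 0 fell by limma, at an unadjusted p under 0.05 too. Its mean was -1.13 and -1.12 at 0 h, near -0.21 in both 6 h arrays, 0.25 and 0.27 at 12 h and 0.26 and 0.29 at 24 h. Chaperone probe sets rose on 28 and fell on 5 of 56 at 24 h, led by the H3-H4 chaperone Nasp at 2.00 and Nap1l1 at 1.70. Processing probe sets rose on 24 and fell on 4 of 34, with the cleavage factor subunit Cpsf2 at 1.87 and the uridylyltransferase Tut7 at -1.32. The histone variants outside the set rose on 4 and fell on 4 of 10 at 24 h. Over all probe sets, 16.2% were lower and 16% higher at 24 h. Markers of the stroma fell on 11 of 26 probe sets at 24 h, with means of -0.33 to -0.08, against 0.33 to 0.75 at 0 h, as did 5 of 15 myeloid, 6 of 13 NK-cell, 6 of 21 T-cell and 10 of 24 B-lineage ones. Of the same lists, 1 myeloid, 1 T-cell, 6 B-lineage and 1 of 9 erythroid probe sets rose at 24 h, and limma called 0 NK-cell and 0 stromal ones higher, also at an unadjusted p under 0.05. The part of these cells and of the cell cycle in the histone values was not tested.

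These 2 experiments share no array, and the histone probe sets called in both had opposite signs. Of the 10 that rose with Ebf1-Eng, 9 fell at 6 h, 10 at 12 h and 9 at 24 h of Ebf1-ER. Over all probe sets, 14.7%, 17.0% and 16.2% were lower at these times. The share among all probe sets that rose with Ebf1-Eng was not counted. The 10 are not separate genes: H1f2, H2ac19 and the 8-gene H3 list each gave 2 of them. The 11-gene H2B probe set also lists H2bc22 and the genes of the shared H2bc8 probe set. Of 44, 10 were called both in Ebf1-Eng cells and at 24 h, and the signs differed for all 10. Over all probe sets, 1624 of 2186 called in both had opposite signs, or 74.3%. The exception among the 10 risers at 24 h was H2bc22, whose change of -0.18 was not called, and the exception at 6 h was H2ac19 on 1418366_at. The 10th of those called in both was H2az1 on 1438092_x_at, lower with Ebf1-Eng and higher at 24 h. Others did not run opposite: both H2az2 probe sets, called with Ebf1-Eng under the block, were lower in both experiments, and the H4 probe set 1424854_at was 0.63 higher with Ebf1-Eng, without passing, and rose at 24 h.

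**Figure D3:**
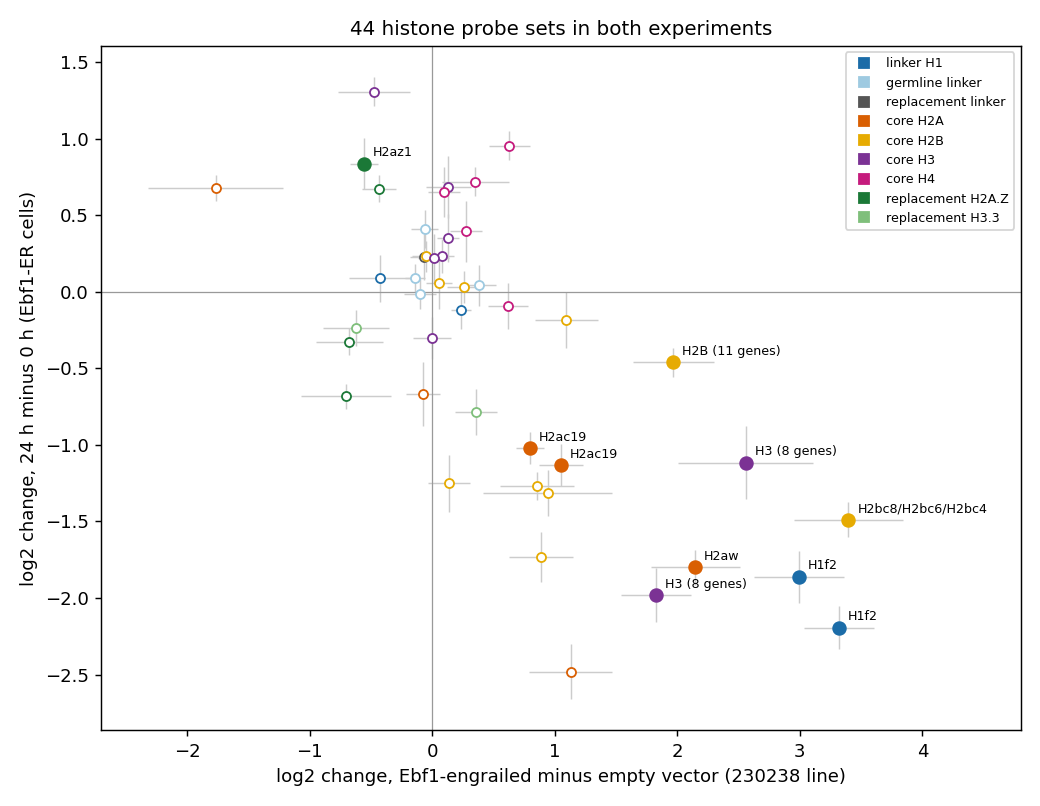
Log2 change with Ebf1-Eng over empty vector (x axis) and at 24 h over 0 h of Ebf1-ER (y axis) for the 44 histone probe sets, coloured by class, with grey lines for 1 SE either way and filled, named points for the 10 called in both. H1f2, H2aw and several H2B and H3 probe sets lie in the lower right, higher with Ebf1-Eng and lower at 24 h, and H2az1 lies in the upper left.

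In the enlarged Ebf1+/-Pax5+/- lymph nodes, some H3 and H1f2 probe sets were lower than in wild-type pro-B cells, and others of the same genes were not called. Of 44, 8 fell and 0 rose (0 also at an unadjusted p under 0.05, limma), beside 15.3% of all probe sets called, 7.0% lower and 8.26% higher. The 8 comprised 4 H3, 2 H1 and 2 H2A probe sets, and the median change of the 44 was -0.58, beside 0.00 for all. H3c4, a core H3 gene of the main cluster, had means of -0.43, -0.03 and 0.75 in the lowest, the median and the highest lymph node on probe set 1453573_at, against 2.69 and 2.68 in the pro-B arrays. No lymph node came near the pro-B arrays, and the change was -2.66 ± 0.29 (6.34-fold lower, adjusted p 0.000267).

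H3c7 lay between -1.23 and 0.55 in the lymph nodes, with a median of -0.18, against 2.02 and 2.06 in pro-B cells, a change of -2.37 ± 0.43 (adjusted p 0.0056). The 12-gene H3 probe set 1427864_at fell by 1.03 ± 0.13 on the log2 scale (adjusted p 0.000816) and H3c11 by 0.72 (adjusted p 0.0288). The second 12-gene probe set, 1460314_s_at, was not called, with node 278 at 1.05, against 1.15 and 1.17 in pro-B cells. Neither 8-gene H3 probe set was called. On both, node 292 lay above the pro-B arrays: 1.80 against 0.90 and 0.85 on 1422155_at, and 2.26 against 0.11 and 0.46 on 1442051_at. The H3 probe sets thus disagree. H1f2 on 1416101_a_at lay between -1.36 and 0.80, with a median of -0.12, against 1.47 and 1.67 in pro-B cells. It fell by 1.70 ± 0.42 on the log2 scale (adjusted p 0.0233), and its second probe set by 1.87 (adjusted p 0.0248). H2ac19 fell by 0.97 and 1.04 on its 2 probe sets.

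No H2B, H4 or H2A.Z probe set and no H1f10 was called by limma in this comparison; at an unadjusted p under 0.05, 0 H2B, 0 H4 and 2 H2A.Z probe sets were lower. H3f3b was 2.19 lower on 1430357_at with an adjusted p of 0.0796; it ranged from -2.26 to 0.82 over lymph nodes, against 1.53 and 1.87 in pro-B cells. Among the 8 with another symbol, 3 fell: 2 of H3f3a and H3f3b, by 0.47 and 0.44, and H2aw with Trim17 by 0.73. The pro-B group held 2 arrays: without either of them 2 of 44 fell, and without lymph node 292 11 fell. The 12-gene H3 probe set 1427864_at and H3c4 passed in every leave-one-out fit.

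Markers of other cells differed between these groups as well. Over all probe sets, 7.0% were lower in the lymph nodes and 8.26% higher. The myeloid list averaged -0.96 to 0.89 in lymph nodes, against 3.47 and 3.69 in the pro-B arrays, and 11 of its 15 probe sets fell, with Mpo at -7.21. The erythroid list averaged -0.24 to 0.17, against 1.63 to 1.73 in pro-B arrays, and 5 of 9 fell, so RNA of myeloid and erythroid genes was present in the arrays labelled pro-B. Of the stromal list 8 of 26 fell, of the B-lineage list 6 fell and 1 rose of 24, and of the T-cell and NK-cell lists limma called 0 (0 of 13 NK-cell probe sets also at an unadjusted p under 0.05). The S-phase list rose on 6 and fell on 1 of 51, with means of -0.48 to 0.23 in lymph nodes, against -0.33 and -0.25 in pro-B arrays. Chaperones rose on 10 and fell on 5 of 56, processing genes rose on 7 and fell on 1 of 34, and variants outside the set rose on 2 of 10. Their part in the histone differences was not tested.

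The 8 lymph nodes differed among themselves. A moderated F test over their 16 arrays called 36 of 44 histone probe sets, or 81.8%, beside 54.1% of all probe sets. The median range of lymph node means was 1.16 for the 44, beside 0.497 for all. Not called were the 4 germline linkers, 1 H1f2, 1 H2B and 2 H3 probe sets. The paired arrays share a lymph node, so this test measures differences between lymph nodes against repeat arrays.

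The H2bu1-ps/H2bu2 probe set had the widest range of the 44, 3.88, with node 292 at 0.89 and node 317 at -2.99. H3f3b ranged over 3.07, with node 292 at 0.82 and nodes 277 and 317 at -2.26 and -2.15 (adjusted p 8.62e-11). Both 8-gene H3 probe sets were highest in node 292, at 2.26 and 1.80, with the next node at 0.05 and 0.27. H1f2 was highest in node 292 and lowest in node 277 on both probe sets, with ranges of 2.34 and 2.17. Over the 36 called by the F test, node 292 was the highest for 15 and node 278 for 10, while node 279 was the lowest for 13 and node 317 for 9.

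Nodes 292 and 279, the highest and the lowest for the most probe sets, also stood out in other lists, and so did other nodes. Node 292 had the lowest S-phase mean, -0.48, beside -0.28 to 0.23 in the others. It had the highest B-lineage mean, 0.52. Node 279 had T-cell and NK-cell means of 2.17 and 2.28, above all others, and the highest myeloid mean, 0.89. Node 381 had the lowest B-lineage mean, -0.93, node 277 the lowest myeloid mean, -0.96, and node 383 the highest S-phase mean, 0.23. Between the nodes, 49 of 51 S-phase, 51 of 56 chaperone and 28 of 34 processing probe sets differed, as did 24 of 24 B-lineage, 18 of 21 T-cell, 12 of 13 NK-cell, 13 of 15 myeloid, 3 of 9 erythroid and 8 of 26 stromal ones. The labels give each node a number and no other trait, so no group was made of them, and the part of cell composition was not tested.

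**Figure D4:**
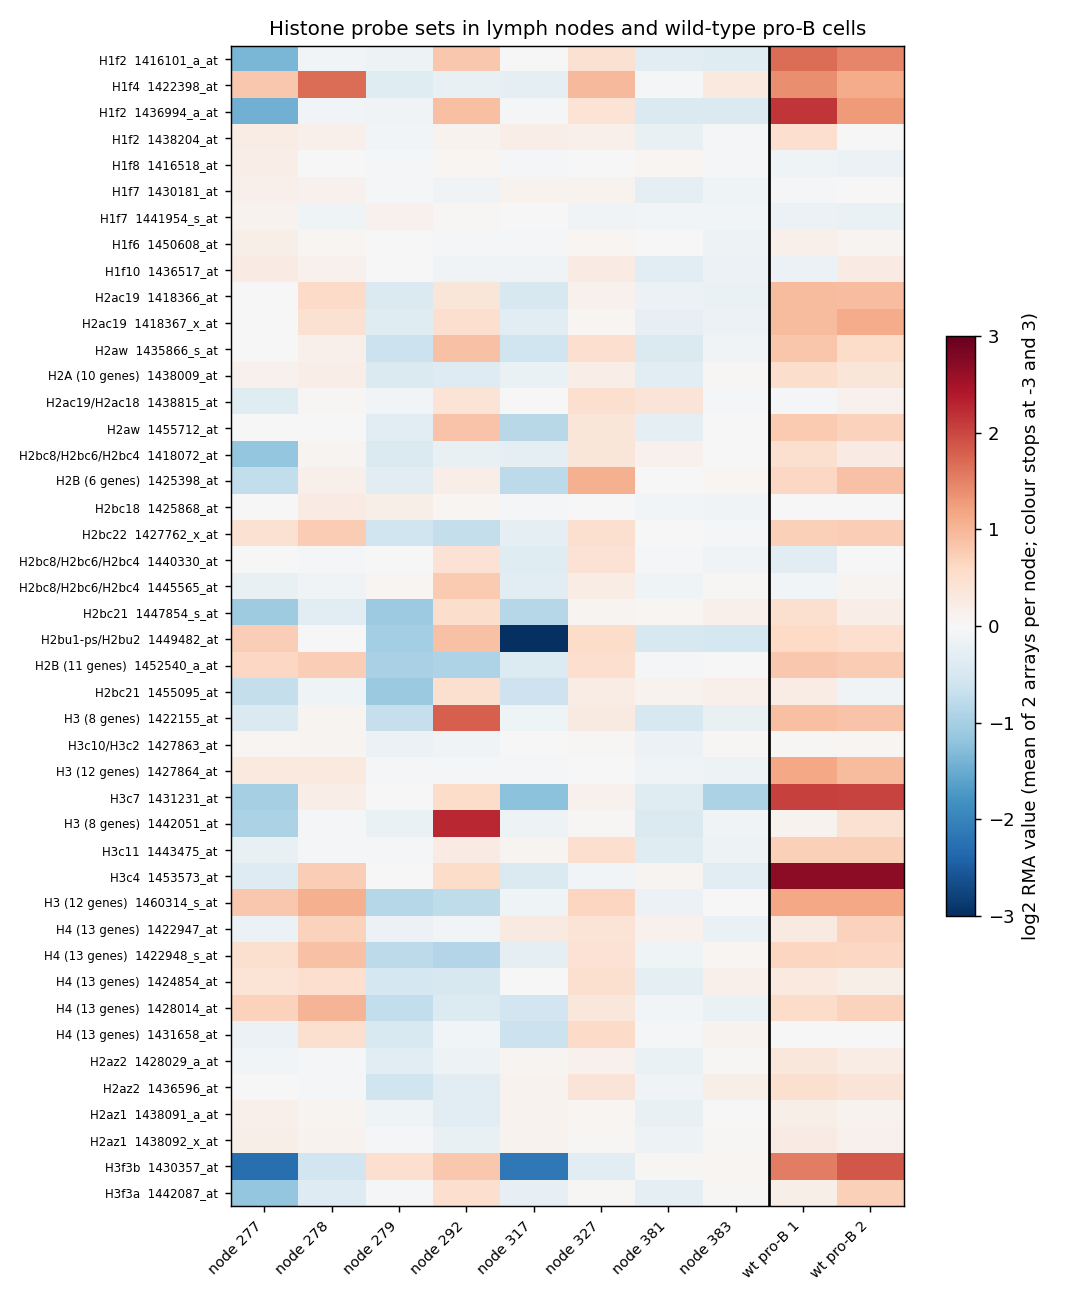
Heat map of centred log2 values of the 44 histone probe sets (down the page) in the 8 lymph nodes, each the mean of 2 arrays, and right of the black line the 2 wild-type pro-B arrays; red is above 0 and blue below, and the colour stops at -3 and 3. H3c4 and H3c7 are darker red in both pro-B arrays than in any lymph node, and node 292 is the reddest node for both 8-gene H3 probe sets.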

How the data were processed

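The series held 32 arrays, all used. The authors deposited log2 values for 45101 probe sets, and the submitters' processing notes name RMA as the tool; the version and the log base are not given in the sources used here, and the base was taken as 2. In the 230238 experiment (6 arrays) and the Ebf1-ER experiment (8 arrays) every probe set had a median of 0, so these values had been centred, and in the lymph node experiment 10846 probe sets had a median of 0. No level, filter on low values or intensity trend could therefore be used. The number of arrays limits the precision.

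limma 3.58.1 (R 4.3.3; lmFit and eBayes) was fitted to all 45101 probe sets per experiment, with the 2 arrays of a lymph node averaged against pro-B cells and kept apart in the F test between lymph nodes, and Benjamini-Hochberg adjustment over all probe sets. The fit was tested on simulated data, where it missed more of the smaller changes than of the larger ones. Same-numbered arrays of the 230238 experiment deviated together (r between 0.256 and 0.481 over 3 pairs). Its 6 pairs with unlike numbers gave r between -0.454 and 0.344. The main fit did not pair the arrays, and the array number served as a block only in an alternative. Same-numbered Ebf1-ER arrays did not deviate together (-0.171 to 0.134). Gene names came from the platform annotation, updated through RefSeq: 34958 probe sets had 1 symbol, 932 several and 9211 none.

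Named were all replacement histones, up to 6 called members with the largest rise and fall per comparison whose groups did not overlap, the 6 with the widest range between lymph nodes, and up to 3 genes per list; other members given to account for the whole set were chosen after their values were seen. The members and the lists of genes were chosen with earlier results of these data known. Alternatives changed the scaling, the groups in the fit, probe set filters, the member rule and the replicate block, and left out arrays. Figures were drawn with matplotlib 3.10.9.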

Additional observations from a re-analysis of the deposited data

Results flagged for a closer look

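A total of 52 histone probe sets were searched over the 8 lymph nodes for a single lymph node far from the rest, and 4 were found; chance gives about 1 in 20. Node 292 stood far above the others on both probe sets shared by 8 H3 genes, at 1.795 on 1422155_at, with the next node at 0.2651, and at 2.265 on 1442051_at, with the next at 0.04527. Node 292 was also apart on 1423262_a_at, shared by H3f3a, H3f3b and other symbols, at 0.2478, with the next node at 0.02629. Node 277 was apart on 1416518_at, for the oocyte linker H1f8, at 0.1948, with the next node at 0.05401; its 2 arrays read 0.14 and 0.25, and the F test between lymph nodes did not call this probe set. The last pair are shifts of under 0.25 log2 units.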

How the results depend on the processing

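Several alternatives count fewer features than the 44 histone probe sets. With 1 probe set per gene (largest variance), over 18 genes, Ebf1-Eng gave 4 higher, Ebf1-ER 7 lower at 6 h, 1 higher and 9 lower at 12 h and 3 higher and 6 lower at 24 h, 0 and 0 from 6 to 12 h and 2 higher from 12 to 24 h, the lymph nodes 5 lower and the F test 14. With the mean per gene the counts were 4; 8 lower; 9 lower; 3 and 6; 1 and 0; 2; 5; and 14. With single-symbol probe sets only they were 6 higher with Ebf1-Eng, 11 lower at 6 h, 14 lower at 12 h, 4 higher and 11 lower at 24 h, 1 and 0 from 6 to 12 h, 3 from 12 to 24 h and 20 between lymph nodes. In 1 fit over all groups, Ebf1-Eng gave 3 lower, Ebf1-ER 11 lower at 6 h, 14 lower at 12 h, 4 higher and 10 lower at 24 h, 0 and 0 from 6 to 12 h and 0 from 12 to 24 h; the cause was not tested.

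Without probe sets ending in _s_at or _x_at, Ebf1-Eng gave 0 lower and 12 h against 6 h 3 higher. The variance filter gave 2 lower with Ebf1-Eng. The replicate block gave 5 lower with Ebf1-Eng and 3 higher and 0 lower at 12 h against 6 h, a fit of only those 2 times 2 and 0, and a fit without the 0 h arrays, chosen after seeing the data, 0 lower. Leaving out both arrays numbered 3, also chosen then, gave 18 higher and 6 lower with Ebf1-Eng.

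Leaving out 1 array or lymph node gave 4 to 14 higher and 0 to 3 lower with Ebf1-Eng. It gave 0 higher and 19 to 22 lower at 6 h, 2 to 3 and 18 to 23 at 12 h and 6 to 8 and 15 to 18 at 24 h. It gave 1 to 2 higher and 0 to 1 lower from 6 to 12 h, 0 to 5 higher and 0 lower from 12 to 24 h, 0 higher and 2 to 11 lower in lymph nodes and 34 to 37 between them. Of the values of named members under all alternatives, 1551 kept direction and call, 147 lost the call, 33 gained it and 0 reversed. The number of arrays and the centring limit what can be read: no signal over background was available.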

Other observations

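The mean of 22 histone probe sets was set against every probe set outside the 52 over the 8 Ebf1-ER arrays, as a description only. The 22 were those of the 44 called at 24 h against 0 h in either direction, without replacement histones. The 5 probe sets most like it were those of Cmah (Pearson's r 0.999), Prr14 (0.997), Kat2b (0.996), Cnn3 (0.996) and Ccdc173 (0.996). All share the 4 times, and the 22 were chosen by the last of them against 0 h.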
